A study of Drosophila melanogaster x Drosophila sechellia and Drosophila melanogaster and Drosophila sechellia with 12 samples.

Results

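The weakly edited sites are positions whose editing level lay below 5% in both D. melanogaster and D. sechellia. The editing level is the percentage of reads with G at the site. Members were chosen from the parent libraries: each had at least 50 own-species reads in each of the 4 libraries, and its level, pooled over the 2 libraries of a species, was under 5% in both. Of the 1058 sites listed, 891 met the read minimum, and 369 of these were members. Their parental levels are therefore given as a description, with no test.

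All libraries were made by mmPCR-seq, in which chosen stretches of cDNA are amplified in parallel in a microfluidic device and then sequenced, from total RNA of heads of adult females, 0 to 2 days old. The groups were D. melanogaster (n = 2), D. sechellia (n = 2), a mixture of both parents (n = 2), their F1 hybrids (n = 3), and hybrids whose D. melanogaster parent carried mutant Adar (Adar F1, n = 3). The hybrid groups and the mixture hold both alleles of each site, and the tables count the reads of each allele apart. The labels do not name the mutant allele of Adar, and they do not say whether replicates came from separate flies or crosses. The spread between libraries may thus be technical. The p-values below draw on this spread, moderated over all sites tested, and on the counting error of reads where the spread was smaller.

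ADAR enzymes deaminate adenosine to inosine in double-stranded RNA, and sequencing reads inosine as G. Flies have a single Adar gene, which acts mostly in neurons, where many edited transcripts encode ion channels and proteins of synaptic transmission. Editing depends on the duplex that the RNA forms around a site, and strongly edited sites often have weakly edited adenosines near them. Genes are not named here because the tables give positions alone, in build dm3.

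Libraries held 251870 to 398284 reads, of which 36.9% to 37.5% lay at the weak sites. The median weak site had 234 to 341 reads in a library. At least 50 reads covered 366 to 369 of the 369 sites in each library of the other groups, and 280 to 290 in the Adar F1 libraries. In every Adar F1 library 58 weak sites had no read, and no weak site lacked reads in all libraries of another group. Reads assigned to the other species made up 0.297% and 0.291% of those at weak sites in the 2 D. melanogaster libraries, and 2.47% and 0.466% in D. sechellia replicates 1 and 2. They exceeded 10% in at least 1 parent library at 32 weak sites, and at 30 of these in D. sechellia replicate 1. No library without ADAR activity was analysed here, so the rate at which sequencing or PCR error gives a G was not measured.

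The median level of the 369 sites was 1.49% in D. melanogaster, with quartiles at 0.882% and 2.51%. In D. sechellia the median was 1.00%, with quartiles at 0.472% and 2.09%. The lowest bin, under 1%, held 106 sites in D. melanogaster and 184 in D. sechellia, and the highest, from 4% to 5%, held 26 and 24. The level was higher in D. melanogaster at 235 sites and in D. sechellia at 133, and it was equal at 1. At least 1% was reached in both species at 147 sites, and at least 2% in both at 52. Large contrasts occurred in both directions: 20 sites had 3% or more in D. melanogaster with under 1% in D. sechellia, and 11 sites had the reverse.

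**Figure D1:**
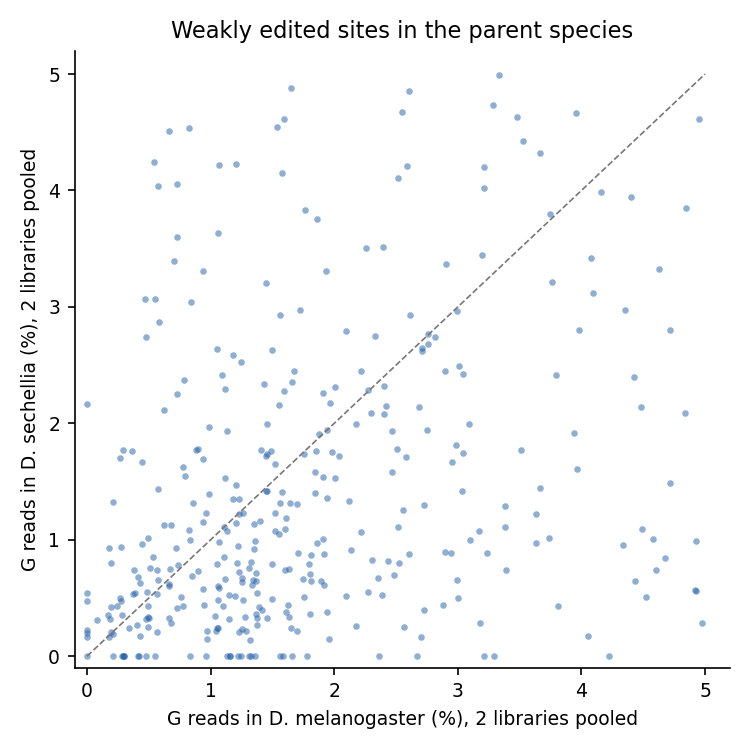
Editing level of each of the 369 weak sites in D. melanogaster (horizontal axis, percent of pooled reads) and in D. sechellia (vertical axis, percent of pooled reads), with a line of equal levels. Points scatter widely on both sides of the line, with 235 sites on the D. melanogaster side and 133 on the D. sechellia side.

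Across the 369 sites the 2 species' levels had a Pearson correlation of 0.308 and a Spearman correlation of 0.346. Between the 2 libraries of a species the Pearson correlation was 0.714 in D. melanogaster and 0.557 in D. sechellia. The rule restricted the range of these levels, and the sites share libraries and depth, so the correlations only describe them. A single library could pass the threshold that the pooled level did not: 16 members had 5% or more in 1 of the 2 D. melanogaster libraries, and 19 in 1 of the 2 D. sechellia libraries.

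The members nearest the threshold were 3R 4897914, with 4.99% in D. sechellia and 3.33% in D. melanogaster, 3R 1061931, with 4.97% in D. melanogaster and 0.285% in D. sechellia, and 3L 6942789, with 4.95% and 4.61%. The nearest sites outside it were X 21500541, with 5.06% in D. sechellia and 2.38% in D. melanogaster, 3R 16790759, with 5.12% and 1.57%, and 3L 20372857, with 5.18% in D. melanogaster and 3.01% in D. sechellia. At 3R 4897914 the 2 D. sechellia libraries gave 5.56% and 4.38%, on either side of the threshold.

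No G read was seen at 7 of the 369 sites (1.90%) in the D. melanogaster libraries and at 29 (7.86%) in the D. sechellia libraries. Given the reads there, a count of 0 allows a level of up to 0.414% to 0.932% at the 7 sites, and of up to 0.366% to 2.66% at the 29. The limits rest on 3 reads of the total and cover counting error only. The sites with no G read were also less deeply covered, with a median of 481 reads against 655.5 at the other sites in D. melanogaster, and 262 against 556.5 in D. sechellia. In D. sechellia, 6 of the 29 had over 10% other-species reads in a parent library, against 26 of the other 340. The part of depth and read assignment in the count of such sites was not tested.

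Only 3L 7396948 lacked a G read in both species, on 323 reads in D. melanogaster and 256 in D. sechellia, which allow 0.929% and 1.17%. Over all 12 libraries, with both alleles counted, every member had at least 1 G read. The lowest level was at X 13608132, with 3 G reads of 3646 (0.0823%), followed by 3R 20533608 with 4 of 2660 (0.150%) and 2L 16742611 with 2 of 1030 (0.194%). In all, 37 members were under 0.5% over all libraries. Whether such sites were edited or read as G in error cannot be told apart here.

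Lack of G reads in D. sechellia held at some of these sites in other groups where coverage allowed a look. Of the 29 sites, 7 had at least 50 reads on the D. sechellia allele in every library of the mixture, 10 in F1 and 7 in Adar F1. There, 4, 5 and 2 of them again had no G read, and 2, 1 and 1 were above 1%. Over all covered members, 32 of 234, 23 of 240 and 12 of 181 had no G read on this allele. The part of depth in the repeated lack was not tested.

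The 369 sites lay in 174 of 309 clusters, where sites within 1000 bases of each other were joined. A cluster held 1 weak site in 89 cases and at least 5 in 15. The 2 largest held 11 each: 2R 6168385 to 6168565, with 14 sites in all, and 3R 4662509 to 4663337, with 17. Weak sites made up 34.1% of the covered sites on X and 46.6% on 3R, with 38.5% on 3L, 41.1% on 2R, 43.8% on 2L and 53.8% (7 of 13) on chromosome 4.

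Most weak sites had a strongly edited site in their cluster, and a near one was almost as common among the other covered sites. A covered site with at least 20% in a species was in the same cluster as 272 members, and within 100 bases of 229 members (62.1%). The same held within 100 bases for 295 (56.5%) of the 522 covered sites outside the rule, for which no cluster count was made. The nearest such site was a median of 33 bases away for the former and 39 for the latter. The base next to the site was itself a listed site for 87 weak sites (23.6%) and 162 others (31.0%). Neighbouring sites share amplicons and often reads, so they are not independent of each other.

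The mean level of the weak sites lay below 2% in the mixture and the hybrids. On the D. melanogaster allele, 226 members had at least 50 reads in every library of the 4 groups that hold it. Their mean level was 1.77% ± 0.0179 (SD, n = 2) in D. melanogaster, 1.75% ± 0.0723 (n = 2) in the mixture, 1.78% ± 0.0310 (n = 3) in F1 and 1.97% ± 0.150 (n = 3) in Adar F1. The medians were 1.45%, 1.31%, 1.33% and 1.05%, so the mean was highest and the median lowest in Adar F1. The high mean rested on 3 neighbouring sites, 2R 11759381, 2R 11759418 and 2R 11759421. Without them, a choice made after seeing the data, the means over 223 sites were 1.75% ± 0.0188 (n = 2), 1.71% ± 0.0590 (n = 2), 1.71% ± 0.0418 (n = 3) and 1.42% ± 0.144 (n = 3), and Adar F1 was lowest. The D. sechellia allele, at 161 members, gave means of 1.60% ± 0.144 (n = 2), 1.59% ± 0.103 (n = 2), 1.47% ± 0.0356 (n = 3) and 1.22% ± 0.125 (n = 3) in D. sechellia, the mixture, F1 and Adar F1. The depth of an allele is lower where both alleles are sequenced: a library of D. melanogaster had no G read at 13 to 16 of the 226 sites, and one of the mixture at 41 to 52.

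**Figure D2:**
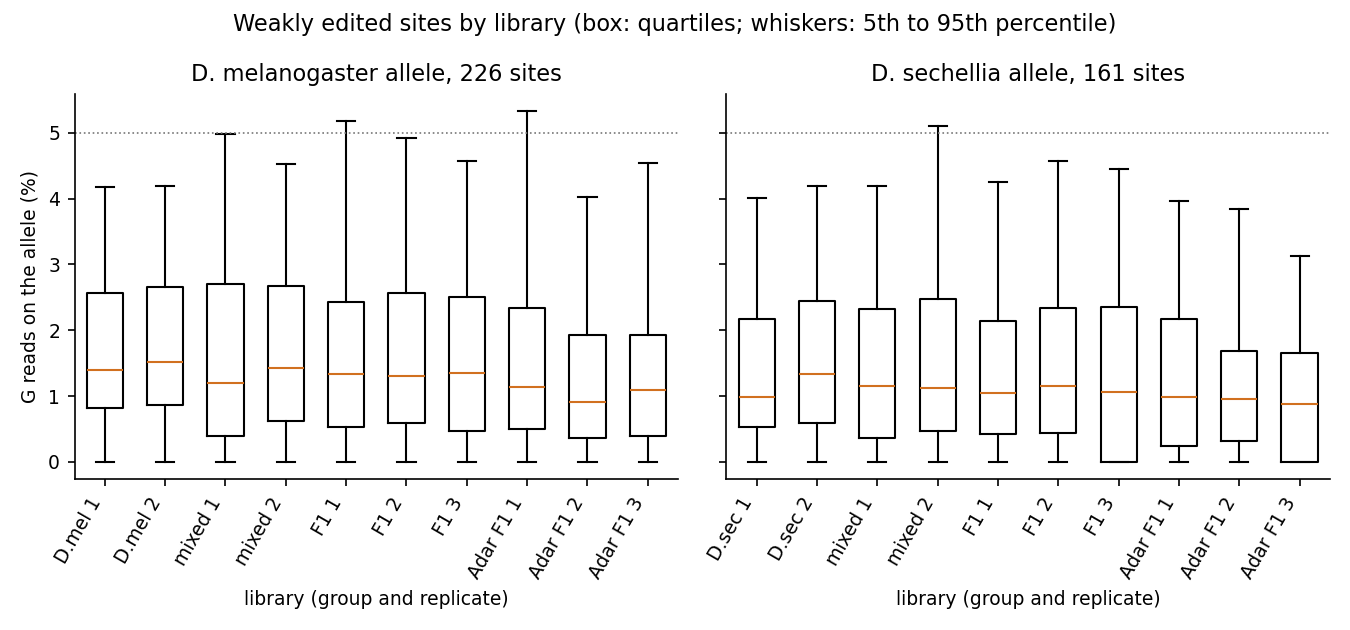
Editing level (percent) of the weak sites in each library, with D. melanogaster allele levels at 226 sites and D. sechellia allele levels at 161. Boxes span the quartiles with a line at the median, whiskers reach the 5th and 95th percentiles, and the dotted line marks 5%. Library medians lie between 0.880% and 1.51%, and the lowest of the group medians is in Adar F1 on either allele.

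Levels on an allele were correlated across sites with those in its parent species. The Pearson correlation of the D. melanogaster levels with those of the same allele was 0.710 in the mixture (344 sites) and 0.708 in F1 (355 sites). It was 0.316 in Adar F1 (238 sites), which include the 3 neighbouring 2R sites named above, at 22.6% to 53.8% there. The Spearman correlations were 0.702 in the mixture, 0.715 in F1 and 0.602 in Adar F1. The rule restricted the range of the parent levels, so the correlations only describe the sites. For the D. sechellia allele the Pearson correlations were 0.764 (234 sites), 0.814 (240 sites) and 0.666 (181 sites).

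Some weak sites passed 5% on an allele elsewhere. On the D. melanogaster allele, 15 of 344 covered members (4.36%) did so in the mixture, 16 of 355 (4.51%) in F1 and 9 of 238 (3.78%) in Adar F1, with levels pooled over a group's libraries. The D. sechellia allele did so at 3 of 234 (1.28%), 3 of 240 (1.25%) and 0 of 181. These small counts hinged on single libraries. In the mixture the D. sechellia allele had 14 such sites without replicate 1 and 10 without replicate 2, beside 19 and 18 on the D. melanogaster allele. In F1 it had 7 without replicate 1 and 7 without replicate 2, and in Adar F1 it had 1, 1 and 3 without replicate 1, 2 or 3. In total 33 members in 23 clusters were above 5% somewhere, of which 17 were so in every library of the group concerned. The D. melanogaster allele was above 5% at 28 of them and the D. sechellia allele at 6, with 2L 16877800 in both lists. Most had been close to the threshold: 19 of the 28 had 3% or more in D. melanogaster, a level that 62 members reached.

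Above 10%, the list was short. The mixture held 1 such site, F1 held 1 and Adar F1 held 3. In the mixture and in F1 it was 2R 13262382. Its D. melanogaster allele had 10.9% and 11.5% in the mixture and 12.6%, 10.9% and 6.57% in F1, against 3.98% in each D. melanogaster library. The rule held parent levels under 5%, and the sites named here were picked for high levels in these groups. A level above that of the parent thus follows in part from the choice and is only a description. In the mixture 3R 27667021 had 8.47% and 7.07% on the D. melanogaster allele, against 2.72% and 5.06% in D. melanogaster. The mixture and F1 shared 8 of the sites above 5% on this allele, and F1 and Adar F1 shared 4. Only 2R 11759381 and 2R 11759421 were above 5% on it in all 3 groups.

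In F1 the highest of the sites above 5% in every library, outside the 2R stretches described further on, was 3R 1061931 at 9.11% ± 1.06 (n = 3), then 2L 16877800 at 7.64% ± 1.30 (n = 3) and 3R 319607 at 7.56% ± 2.11 (n = 3). In Adar F1, 2R 11662558 was at 10.1%, 5.57% and 6.19%, and 2L 7230013 at 6.67%, 5.39% and 5.52%. Their D. melanogaster levels, held under 5% by the rule, had been 2.42% and 2.04%. In F1 this allele already averaged 4.87% and 4.49%. Neither site passed the test of Adar F1 against F1 on it (adjusted p = 0.245 and 0.575, quasi-binomial test, n = 3). For the D. sechellia allele 3L 9826466 alone passed in every library of a group, with 5.07% and 5.73% in the mixture against 4.67% in D. sechellia.

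The alleles of 1 hybrid share the same cells, so a gap between them was measured within libraries. In F1, 235 weak sites had at least 50 reads on both alleles in every library, 146 also had a mean level of at least 1% and were tested, and 29 of these in 20 clusters differed (19.9%). Over all 504 sites tested, 31.7% differed, so the share among the weak sites was below that background. The D. melanogaster allele was higher at 22 sites and the D. sechellia allele at 7, where the background was 18.5% and 13.3% of all sites. The median difference, D. sechellia minus D. melanogaster, was -0.296 percentage points over the weak sites and -0.291 over all sites tested. The median size of the difference was 1.08 points against 2.41. Members were chosen for low levels, which leaves little room for differences in points and few G reads for a test. The part of this in the smaller size and share was not tested, here or in the comparisons below. Of the 22 and the 7 sites, 15 and 4 were under 1% on the lower allele and met the level minimum through the other, and 20 and 5 were still called with no level minimum. These calls come from a quasi-binomial test with the library as a block and Benjamini-Hochberg adjustment over all sites. They depend on leaving observations fitted at exactly 0 or 1 out of the residual degrees of freedom: without that step 5 weak sites differed in F1, 0 in the mixture and 6 in Adar F1. The count in F1 was 17 without F1 replicate 1 and 14 without F1 replicate 2.

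The gap had the sign of the parental difference at 27 of the 29 sites, and the exceptions were 2R 9775055 and X 2110606. The rule used the parental levels, and no such share was counted over all sites called, so this only describes the 29. At 2R 9775055 the F1 libraries gave 7.14%, 5.60% and 3.85% on the D. melanogaster allele and 1.48%, 0.926% and 1.36% on the other (adjusted p = 0.0108, quasi-binomial test, n = 3). The alleles did not overlap, while the parents had 1.59% in D. melanogaster and 2.28% in D. sechellia. At X 2110606 the alleles averaged 5.70% and 1.77%, and the parents 2.59% and 4.21%. Among the 7 sites with the D. sechellia allele higher, 2L 3762370 averaged 4.93% ± 1.98 against 1.98% ± 0.887 (n = 3) and the chromosome 4 site 1268844 averaged 3.75% ± 1.45 against 0.211% ± 0.365 (n = 3).

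Of the 22 sites with the D. melanogaster allele higher, 6 lay within 170 bases on 3R, from 1061931 to 1062100, a stretch with 11 sites and 7 weak ones. At 3R 1061931 the D. melanogaster libraries had 4.80% and 5.15% and the D. sechellia libraries 0.350% and 0.208%. In F1 this site gave 9.69%, 7.89% and 9.75% on the D. melanogaster allele and 0%, 0.493% and 0% on the other. The alleles lay far apart in every library (difference -8.94 points, adjusted p = 3.62e-17, quasi-binomial test, n = 3). The site had no read in Adar F1.

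At 3R 1062050 the F1 libraries had 6.49%, 3.55% and 6.16% on the D. melanogaster allele against 1.63%, 1.36% and 2.36%, without overlap (adjusted p = 0.000842, quasi-binomial test, n = 3). In Adar F1 the same site had 7.05%, 8.35% and 7.37% against 1.24%, 0.955% and 1.33%, again without overlap (adjusted p = 1.58e-09, quasi-binomial test, n = 3). At 3R 1062063 the Adar F1 libraries had 3.59%, 4.02% and 4.33% against no G read of 1582 on the D. sechellia allele, which allows 0.190% (adjusted p = 5.19e-12, quasi-binomial test, n = 3). This stretch was picked for holding at least 3 called members, so the shares called within it only describe it. Over all sites tested, 31.7%, 26.1% and 35% differed between alleles in F1, the mixture and Adar F1. In the stretch, 6 of 7 weak sites tested differed in F1, 6 of 7 in the mixture and 5 of 6 in Adar F1. The D. melanogaster allele was higher at each.

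Strongly edited sites of the same stretch did not all share this direction. In F1, 3R 1062097 averaged 67.4% ± 3.98 for the D. melanogaster allele against 0.890% ± 0.458 for the other (n = 3). By contrast 3R 1062051 averaged 24.9% and 47.0%, and 3R 1062054 averaged 90.2% and 95.1%.

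**Figure D3:**
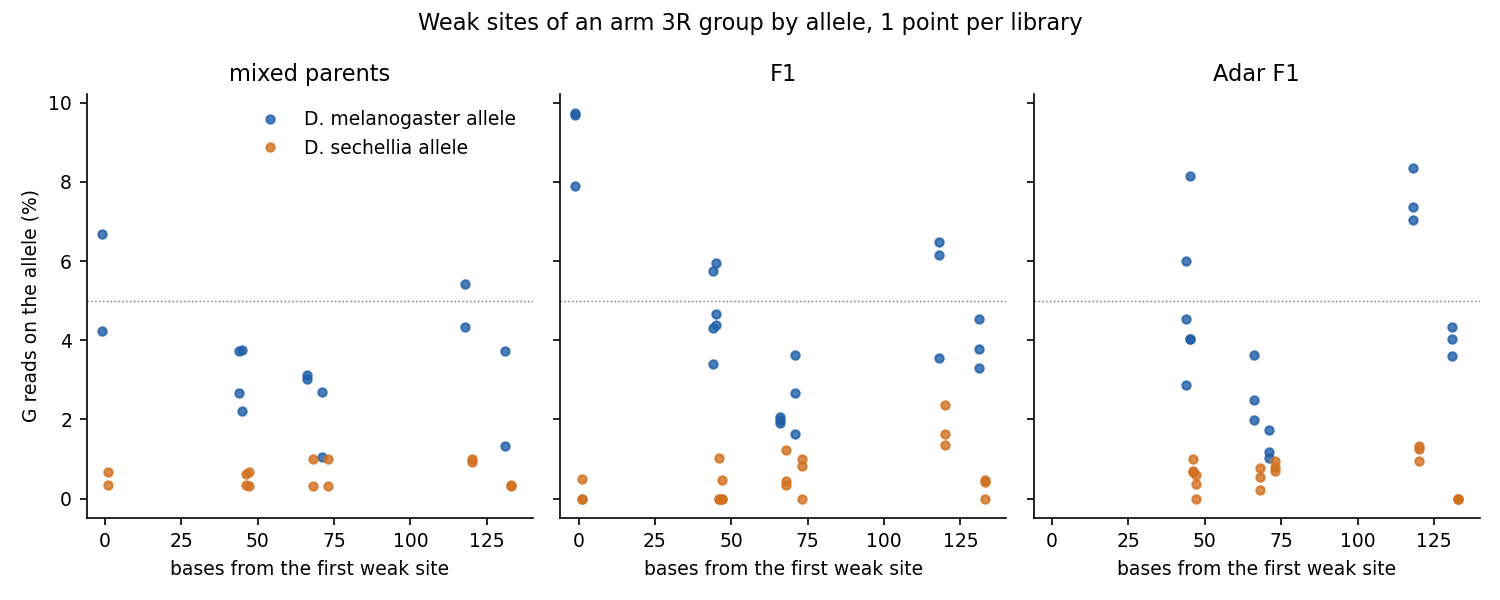
Editing level (percent) of the 7 weak sites between 3R 1061931 and 3R 1062100, placed by distance in bases from the first site, in panels for the groups that hold both alleles. Points are libraries, blue for the D. melanogaster allele and orange for the D. sechellia allele. At 3R 1061931 the 3 F1 libraries sit between 7.89% and 9.75% on the D. melanogaster allele and at or below 0.493% on the other.

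In the mixture 14 of 145 weak sites tested differed between alleles (9.66%), against 26.1% of all 518 sites tested, and leaving out either library left 5, with the lone library assumed to vary like those of the hybrids. In Adar F1 13 of 83 differed (15.7%), against 35% of all 337, and 6 did without Adar F1 replicate 3. The sign was that of the parental difference at 13 of the 14 sites and at all 13, again with no share over all sites called. Of the 29 sites called in F1, 28 were tested in the mixture and 8 of these were called there (28.6%, and 57.1% of the mixture's list). In Adar F1 17 were tested and 9 were called (52.9%, and 69.2% of that list). Each had the same sign. Over all sites called in F1 and tested in the other group, the share was 66.7% of 156 in the mixture and 72.8% of 114 in Adar F1, above that of the weak sites.

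The alleles differed in all 3 groups at 5 sites, which were 3R 1061976, 3R 1061977, 3R 1062050, 3R 1062063 and X 3847352. The 3R sites all lie in the stretch described above. This list depends on the reduced residual degrees of freedom, because without that step no weak site differed in the mixture. At X 3847352 the D. sechellia allele was higher. The D. sechellia libraries had 2.64% and 3.17% there and the D. melanogaster libraries 0.847% and 0.302%. In F1 the D. sechellia allele had 0.592%, 4.26% and 2.70%, and the other 0.637%, 0% and 0%. The alleles overlapped in F1 because of replicate 1. In Adar F1 they did not, with 2.31%, 1.83% and 1.79% against 0%, 0% and 0.450%.

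No weak site differed between F1 and the mixture with both alleles counted (0 of 213 tested, quasi-binomial test with limma's moderated dispersion), and 9 had an unadjusted p under 0.05. Fisher's exact test and limma on transformed levels also called 0. Over all 825 sites tested the share called was 0.121%. The median difference, F1 minus mixture, was 0.0421 points over the weak sites.

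Editing of some weak sites fell in the Adar F1 hybrids compared with F1, and that of a few rose. Of 277 weak sites with enough reads, 162 were tested with both alleles counted, and 32 in 19 clusters changed (19.8%), against 33.9% of all 619 sites tested. The level fell at 24 sites and rose at 8, where 26.3% of all sites tested fell and 7.59% rose. The level minimum was applied to the mean of both groups, and sites with under 1% in one of them entered through the other: 5 of the 8 that rose were under 1% in F1, and 13 of the 24 that fell were under 1% in Adar F1. With no level minimum 7 of the 8 and 21 of the 24 were still called. The median difference over the 162 sites was -0.364 points, against -1.16 over all sites tested. The low levels set by the rule limit the size of a fall in points. The difference was below 0 at 102 of the 162. The count was 21, 19 and 21 without F1 replicate 1, 2 or 3, and 21 without Adar F1 replicate 3.

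**Figure D4:**
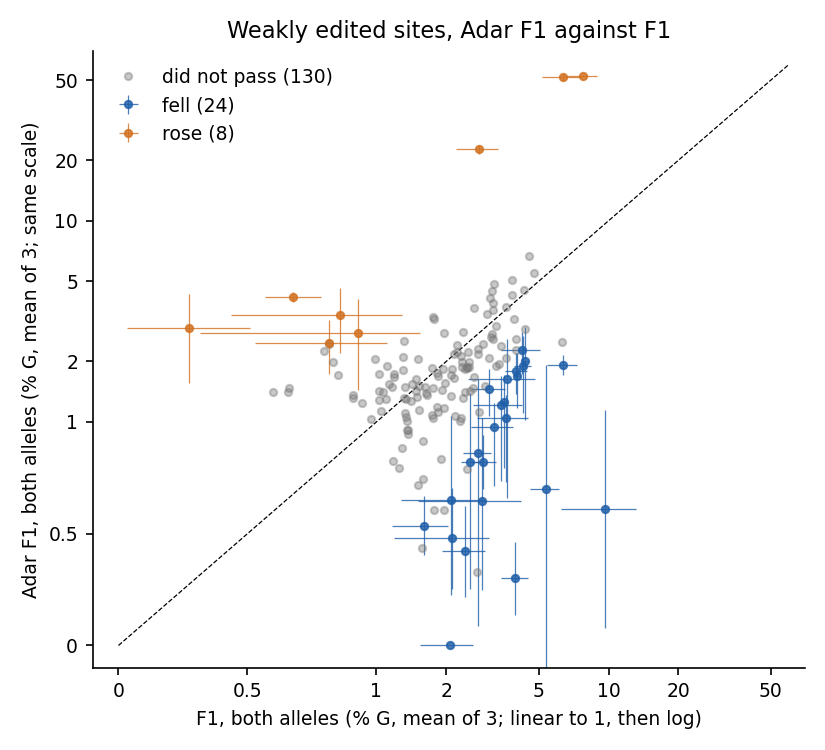
Editing level of the 162 weak sites tested, both alleles counted, in F1 (horizontal axis) and Adar F1 (vertical axis), in percent on axes that are linear up to 1% and logarithmic above. Coloured points with SD bars (n = 3 in each group) are the 24 sites that fell and the 8 that rose, grey points are the 130 that did not pass the test. The 3 points above 20% in Adar F1 are 2R 11759381, 2R 11759418 and 2R 11759421.

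The composition of the reads also shifted between these groups. The D. melanogaster share of reads moved by over 30 points at 18 of the 162 sites, among them 3 of the 8 that rose and 2 of the 24 that fell. Median coverage of the tested sites was 330 reads in F1 and 456.5 in Adar F1. Of the 162 sites, 16 had over 10% other-species reads in a parent library, and 9 of the 32 that changed were among them. The part of read assignment and of coverage in these changes was not tested.

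The largest changes were at 3 weak sites within 41 bases on 2R. At 2R 11759381 the D. melanogaster allele had 4.01% and 4.85% in D. melanogaster, 3.90% and 9.04% in the mixture, and 7.53%, 8.94% and 11.9% in F1. In Adar F1 it had 53.4%, 52.2% and 56.5%. Every Adar F1 library was far above every other library, and the difference on this allele was 44.6 points (adjusted p = 9.40e-09, quasi-binomial test, n = 3).

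At 2R 11759421 the D. melanogaster allele went from 7.43%, 6.79% and 9.15% in F1 to 52.9%, 52.0% and 52.1% in Adar F1. At 2R 11759418 it went from 3.43%, 2.47% and 2.44% to 23.8%, 21.9% and 22.3%. With both alleles counted, the adjusted p was 7.91e-10 and 3.53e-07 (quasi-binomial test, n = 3). The groups did not overlap at either site. These sites had hardly any D. sechellia read in any hybrid library, and no G read was seen at 2R 11759418 in D. sechellia on 64 and 51 reads.

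Read depth moved with these rises. At 2R 11759381 the D. melanogaster allele had 186, 179 and 193 reads in F1 and 887, 1083 and 774 in Adar F1, and its share of reads was 50.1% and 94.4%. On the few D. sechellia reads in Adar F1, 60, 57 and 44, the level was 16.7%, 14.0% and 13.6%, against 5.41%, 1.56% and 2.79% in F1. A more strongly edited neighbour 41 bases away, 2R 11759340, also went up on the D. melanogaster allele, from 9.19%, 12.7% and 17.1% to 55.8%, 55.6% and 56.8%. Farther along the same cluster, 2R 11759871 went from 55.7% to 48.6% on this allele. The part of the altered read composition in these rises was not tested.

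**Figure D5:**
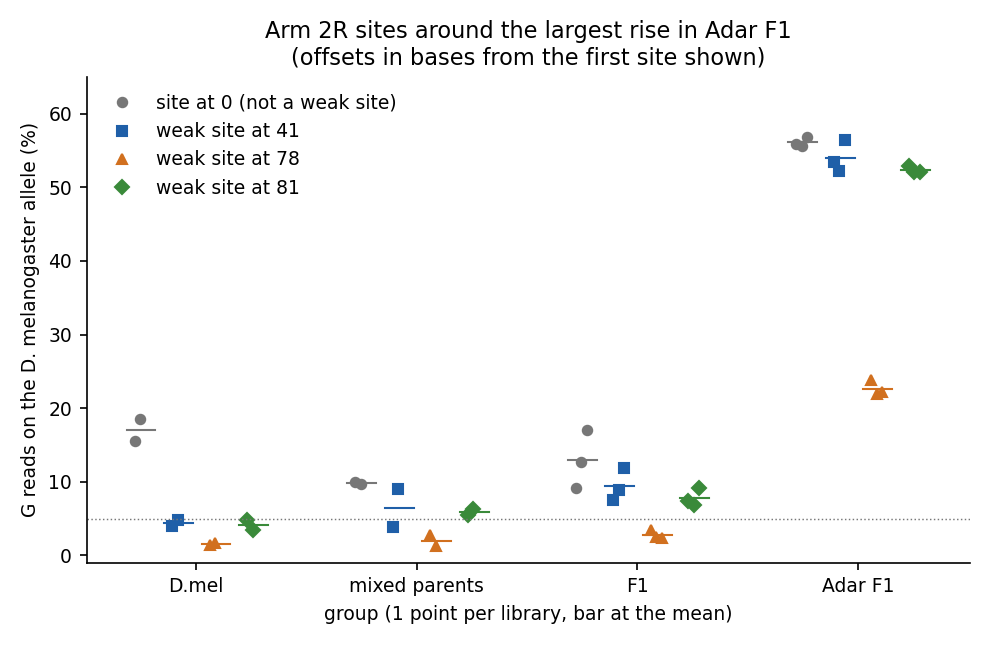
Editing level (percent) on the D. melanogaster allele at 4 sites on 2R, for D. melanogaster, the mixture, F1 and Adar F1 (horizontal axis). Sites differ by marker and colour and are labelled by distance in bases from 2R 11759340, which is not a weak site. Points are libraries. At the weak site 41 bases along, the 3 Adar F1 libraries lie between 52.2% and 56.5% and every other library at or below 11.9%.

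The other 5 rises were smaller. At 3R 23500461 the F1 libraries had 0.552%, 0.741% and 0.735% and the Adar F1 libraries 4.18%, 4.43% and 3.97% with both alleles counted (adjusted p = 0.00131, quasi-binomial test, n = 3). No D. melanogaster read was present in Adar F1, where this allele had 61.5% of the reads in F1. On the D. sechellia allele alone the mean went from 0.513% to 4.19% (adjusted p = 0.00684, quasi-binomial test, n = 3). The neighbour 3R 23500444 rose from 0.859% to 3.41%. At 2R 11662517 the D. melanogaster allele had no G read in F1 on 643 reads, which allows 0.467%, and 3.41%, 4.68% and 1.63% in Adar F1 (adjusted p = 0.00278, quasi-binomial test, n = 3). At both 3R sites and at 2R 11662517, F1 was under the level minimum of 1%, which these sites met through Adar F1. The remaining rises were at 2L 4986771 and 3R 16147906.

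The 24 falls lay in 14 clusters, and 2 of these held 10 of them. A stretch of 284 bases on 2R, from 13262372 to 13262655, has 24 sites and 8 weak ones, and 6 of the 7 weak sites tested fell. It was picked for holding at least 3 called members, so this share only describes it. Over all sites tested, 26.3% fell. At 2R 13262382 the F1 libraries had 12.2%, 11.1% and 5.73% and the Adar F1 libraries 0%, 0.847% and 0.990% with both alleles counted. The groups did not overlap (9.65% ± 3.44 against 0.613% ± 0.535, adjusted p = 0.000414, quasi-binomial test, n = 3). The other 5 that fell were 2R 13262383, 13262542, 13262556, 13262557 and 13262558. The last 4 had over 10% other-species reads in a parent library. Strongly edited sites nearby were also lower, with 2R 13262562 at 45.2% and 25.8% and 2R 13262563 at 36.5% and 16.9%, while 2R 13262546 was at 96.0% and 99.4%.

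On 3L, from 9826390 to 9826587, 4 of 5 weak sites tested fell. This stretch was picked in the same way, so the share again only describes it. At 3L 9826406 the F1 libraries had 4.42%, 4.08% and 3.38% and the Adar F1 libraries 0.395%, 0.112% and 0.395%, on 296 to 343 and 760 to 893 reads. These did not overlap (adjusted p = 2.60e-05, quasi-binomial test, n = 3). On the D. sechellia allele alone the mean went from 4.48% to 0.456% (adjusted p = 3.15e-06, quasi-binomial test, n = 3). Its neighbours 3L 9826463 and 3L 9826466 fell from 4.28% to 1.89% and from 3.43% to 1.22%.

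Elsewhere, 2L 16877800, above 5% on both alleles in a group that holds them, had 6.67%, 5.31% and 7.17% in F1 and 2.16%, 1.90% and 1.72% in Adar F1, without overlap (adjusted p = 0.0120, quasi-binomial test, n = 3). On X, 1267604 averaged 2.08% ± 0.536 in F1 (n = 3) and had no G read in Adar F1 on 516 reads, which allows 0.581%, so it met the level minimum through F1. It fell together with X 1267647, which averaged 2.53% and 0.822%. Both had over 10% other-species reads in a parent library.

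Counted by allele, 23 of 135 weak sites tested changed on the D. melanogaster allele between F1 and Adar F1 (17%, against 27.4% of all 503), 17 lower and 6 higher, with a background of 22.7% and 4.77%. The count was 10, 14 and 15 without F1 replicate 1, 2 or 3. On the D. sechellia allele 4 of 89 changed (4.49%, against 18.6% of all 355), 2 lower and 2 higher, with a background of 15.8% and 2.82%. The count was 1 without F1 replicate 3 and 7 without Adar F1 replicate 1. The gap between the alleles itself changed at 0 of 88 weak sites tested between these groups (quasi-binomial interaction test), with 7 at an unadjusted p under 0.05, against 4.43% of all 316. The larger count on the D. melanogaster allele is therefore not shown to be a difference between the alleles.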

How the data were processed

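The authors deposited, per the file headers, whole-number read counts with A and with G per site and species sequence, and an editing percent. This deposited percent matched 100 times G over all reads within 0.051 points in the 20603 values compared, so levels here come from the counts alone. Per the submitters' processing notes, BWA was the aligner and dm3 the build. How reads were given to a species is not stated in the sources used here. D. sechellia replicate 1 lacks 1 listed site, taken as having no reads. The counts carry no molecular identifiers, so limits cover counting error only.

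The members, lists and regions were chosen with earlier results of these data known. Each site with at least 50 reads in every compared library or allele and a mean level of at least 1% was fitted by a quasi-binomial logistic regression (R 4.3.3). Dispersions, moderated with limma 3.58.1 (squeezeVar, trend on coverage), were held at or above 1. Deviance F tests gave the p-values, with Benjamini-Hochberg adjustment over all sites tested and a threshold of 0.05. Alleles were compared with the library as a block. Group comparisons had no block. Deviations from group means had correlations of 0.159, 0.181 and -0.031 between same-numbered libraries of Adar F1 and F1. Differently numbered ones gave -0.188 to 0.111. Between F1 and the mixture, same numbers gave -0.266 and -0.285. Whether the numbers pair libraries is thus not settled, and counts with the replicate number as a block are given further on. Observations fitted at exactly 0 or 1 were left out of the residual degrees of freedom, a step adopted after a first run on simulated data recovered no changed site between alleles.

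Named sites were up to 8 called per comparison with values that do not overlap, by size of change, at most 2 per cluster, and those above 5% in every library of a group. Regions are clusters with at least 3 members called in any comparison, chosen after values were seen; sites that are no members, and sites named singly for lying at an extreme, were also chosen so. Python 3.11.15, pandas 2.3.3, SciPy 1.17.1 and matplotlib 3.10.9 were used. Alternatives covered the coverage and level minimum, limma on transformed levels, Fisher's exact test, the block, the fitted groups and leaving out each library.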

Additional observations from a re-analysis of the deposited data

Results flagged for a closer look

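At 2R 9775056 the gap between alleles, D. sechellia minus D. melanogaster, had opposite signs in every library of 2 groups, and the difference itself was not tested. In F1 the D. melanogaster allele had 8.08%, 9.60% and 3.85% and the other 0%, 2.75% and 2.72%, whereas in the mixture the values were 2.60% and 3.45% against 3.42% and 5.11%, a change of the gap by -6.59 points. In Adar F1 they were 5.33%, 6.50% and 6.98% against 3.98%, 4.04% and 1.05%, so the gap of the mixture lay 4.49 points from that of Adar F1. At X 3847294 the gap of the mixture and that of Adar F1 also had opposite signs in every library and lay 2.62 points apart. The D. melanogaster allele had 0.746% and 0.735% in the mixture and 2.45%, 2.49% and 1.67% in Adar F1. This difference between the gaps was not tested. Within the mixture the alleles passed the test at neither site. With dispersion shared by the 3 groups that hold both alleles, p there was 0.556 at 2R 9775056 and 0.545 at X 3847294 (quasi-binomial test, n = 2).

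D. sechellia replicate 1 held over 10% of reads assigned to D. melanogaster at 30 weak sites, reads that no level of this library used. The D. sechellia allele of 2R 11759381 stood at 14.9% in Adar F1 with its 3 libraries pooled, on 60, 57 and 44 reads. It was below the read minimum in 1 library, and so its level in Adar F1 entered no test by allele. Its reads were part of the comparison of Adar F1 with F1 that counted both alleles.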

How the results depend on the processing

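The count of weak sites stayed between 363 and 374 when 1 parent library was left out. Among sites named for a test, counted once per site and setting, 505 pairs kept direction and call, 74 lost the call and 0 reversed. These sites were picked for the largest called differences in the same data, so the kept calls and directions follow in part from the choice. Pairs in which the site was no longer tested are not in these counts. Counts of members above 5% were smaller in every library than pooled: 6 and 1 in the mixture (D. melanogaster and D. sechellia allele) and 8 and 0 in F1. With a minimum of 20 reads the D. sechellia allele had 5 above 5% in the mixture, 5 in F1 and 1 in Adar F1. Leaving out 1 library gave 18 to 19 and 10 to 14 in the mixture, 17 to 21 and 3 to 7 in F1, and 8 to 12 and 1 to 3 in Adar F1. With a level minimum of 5%, the calls numbered 1, 0 and 0 between alleles in F1, the mixture and Adar F1, and 4, 4 and 0 for Adar F1 against F1 (both alleles, D. melanogaster allele, D. sechellia allele), because fewer sites are tested. Without the reduced degrees of freedom, a step chosen after seeing the data, allele calls numbered 5, 0 and 6. Limma gave 6 between alleles in the mixture and 14 on the D. melanogaster allele of Adar F1 against F1. Leaving out sites with over 10% other-species reads, added after seeing the data, gave 15 there. On the D. sechellia allele Fisher's exact test gave 9 and a minimum of 100 reads gave 2, and with 20 reads the gap changed at 1 site. Apart from the steps named, the causes were not tested.

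Leaving out 1 library gave 14 to 22 allele calls in F1, 5 to 5 in the mixture and 6 to 11 in Adar F1. For Adar F1 against F1 it gave 19 to 37 with both alleles, 10 to 29 on the D. melanogaster allele and 1 to 7 on the D. sechellia allele, and 0 to 0 for F1 against the mixture and for the change of the gap. With the replicate number as a block, Adar F1 against F1 gave 26, 23 and 5 calls and F1 against the mixture 0. Without the library block, allele calls numbered 25 in F1, 14 in the mixture and 10 in Adar F1. No block moved a count by over 1.5 times. Depth limits the levels on the D. sechellia allele most, where 181 to 240 members had 50 reads in every library of a group.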
